A study of Mus musculus with 2 samples.

Results

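Paired-type homeobox genes of limb mesenchyme were compared between distal and proximal regions of organoids made from mouse limb mesenchyme. The group held 6 genes chosen by symbol (Prrx1, Prrx2, Alx1, Alx4, Shox2 and Pitx1), and all 6 were among the 13916 protein-coding genes of the authors' deposited distal against proximal table. Both sides came from limb mesenchymal cells of Slc:ICR mouse embryos, grown as organoids for 48 h in medium with Fgf8b and Wnt3a. The 5 organoids came from 4 cultures and were frozen on day 2. Chosen areas of 10 µm sections were released by ultraviolet light at 365 nm after reverse transcription inside the section, a method called photo-isolation chemistry. Each side was 1 library pooled from 5 barcoded regions, so the side of the organoid and the library cannot be told apart, and no difference below has a check in an independent library. The labels do not say whether the cells came from forelimb or hindlimb buds, or from how many embryos.

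Paired-type homeobox genes encode transcription factors whose DNA-binding homeodomain belongs to the paired class. Prrx1 and Prrx2 mark early limb mesenchyme and are needed together for limb outgrowth and skeletal shape. Alx4 and Alx1 are aristaless-like factors of anterior limb and craniofacial mesenchyme, Shox2 is needed for the proximal limb skeleton (the humerus and femur), and Pitx1 sets hindlimb identity. In these factors the residue at homeodomain position 50 helps to choose the DNA site that is bound.

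The coding sequence of the recognition helix is shown for each gene, since it is what the 6 genes share apart from their names and separates Pitx1 from the rest. The stretches run from codon 42 to codon 59 of the homeobox, 5′ to 3′ on the coding strand, from GENCODE M21 transcripts on GRCm38, and capitals mark codon 50.
Prrx1: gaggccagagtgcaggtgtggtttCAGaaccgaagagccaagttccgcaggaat
Prrx2: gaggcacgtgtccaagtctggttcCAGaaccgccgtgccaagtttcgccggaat
Alx1: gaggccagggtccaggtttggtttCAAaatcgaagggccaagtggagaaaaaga
Alx4: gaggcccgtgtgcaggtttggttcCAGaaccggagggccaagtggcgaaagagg
Shox2: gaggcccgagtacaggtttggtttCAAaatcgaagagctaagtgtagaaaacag
Pitx1: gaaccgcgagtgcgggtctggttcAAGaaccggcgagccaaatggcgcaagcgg

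Codon 50 was CAG in Prrx1, Prrx2 and Alx4 and CAA in Alx1 and Shox2, both codons for glutamine, and it was AAG, a lysine codon, in Pitx1. Over the whole homeobox of 180 bases, Prrx1 and Prrx2 shared 78.9% of bases and Alx1 and Alx4 shared 76.7%. The other 13 pairs shared 56.1% (Shox2 and Pitx1) to 70.0% (Alx4 and Pitx1). In each of the 6 genes the homeobox was split over 2 coding exons, with the exon junction just before or inside codon 47. The stretches shown span chr1:163257904-163261854 on the minus strand for Prrx1, chr2:30878577-30879530 on the plus strand for Prrx2 and chr3:66975872-66978200 on the minus strand for Shox2, in exons 2 and 3 of each. They span chr2:93668651-93675334 on the plus strand for Alx4 and chr13:55826573-55828454 on the minus strand for Pitx1, again in exons 2 and 3, and chr10:103022267-103025149 on the minus strand for Alx1, in exons 3 and 4. No transcript end of a member had a near-identical copy in another gene. Ext2 lies on the opposite strand over 20312 bases of Alx4, Rsrc1 over 382 bases of Shox2, and antisense genes overlap Prrx1 (Gm20471) and Pitx1 (Gm47071). The sources used here do not say whether counting used strand, so reads of these partners cannot be told apart from reads of the members. Noncoding genes also overlap on the same strand in Prrx1 (Gm26523 and Gm37644), Alx1 (Gm17028) and Pitx1 (Gm28760), where strand would not separate them.

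Depth differed between the sides. The table holds no column per region, but the deposited values fix the counts of every region for each of the 6661 genes with a mean of normalized counts up to 3. The size factors, which scale each region for depth, ran from 0.329 to 0.832 in the distal and from 1.502 to 2.42 in the proximal regions, so that distal regions held 23.3% of the depth. One count was therefore worth more after scaling in distal than in proximal regions.

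None of the 6 genes was called in the authors' deposited table at an adjusted p under 0.05. Of all genes 0.977% were called there, 0.395% higher in distal and 0.582% higher in proximal. At an unadjusted p under 0.05 in the same table, 1 of the 6 passed (Shox2), against 6.07% of all genes. The members fell into 3 kinds by their data: Prrx1 and Prrx2 were counted on both sides, Shox2 and Pitx1 were counted almost wholly in proximal regions, and Alx1 and Alx4 were close to absent. The median log2 change of the 6 in the authors' deposited table was -0.27, and that of all genes was 0.07.

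**Figure D1:**
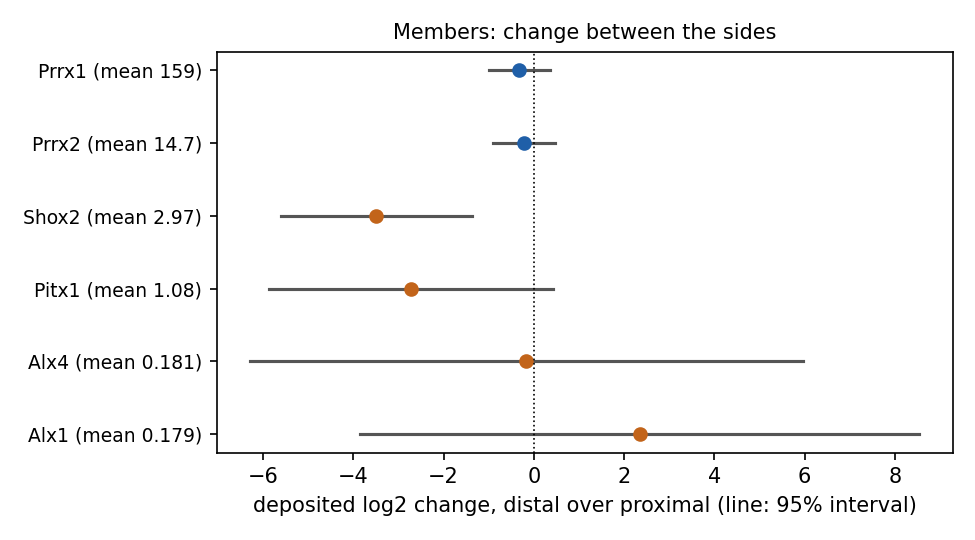
The log2 change of distal over proximal in the authors' deposited table is plotted for the 6 genes, with a line for the 95% interval computed from the deposited standard error. Blue points have a mean of at least 10 and orange points a lower one. The interval of Shox2 lies wholly below 0 (-5.61 to -1.38), and the other 5 intervals include 0.

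Prrx1 (ENSMUSG00000026586, chr1:163245119-163313710, minus strand, GRCm38), a factor of early limb mesenchyme whose enhancer drives a widely used Cre line, was among the most counted genes of the table. Its mean of normalized counts in the authors' deposited table was 159, the rank of 50 among 13916 genes. That mean and the deposited log2 change correspond to about 141 normalized counts in distal and 176.6 in proximal, or about 414 distal and 1704 proximal counts. Both sides were thus well covered. In the authors' deposited table its log2 change was -0.32 (SE 0.35, adjusted p 0.991). The 95% interval ran from -0.999 to 0.36, which is 0.50 to 1.28 times the proximal level. Prrx1 was not shown to differ between the sides, and differences up to the ends of that interval could not be told apart from none.

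The standard error of Prrx1 was large for its depth. Counting error alone would give a standard error of 0.079 for its log2 change at these counts, and the deposited one was 4.38 times as large. In the authors' model that standard error corresponds to a dispersion of 0.136, a coefficient of variation between regions of one side of 36.8% beyond counting error. This kind of model moderates dispersions across genes. Among the 218 genes with a mean from 79.5 to 318 (within a factor of 2 of Prrx1), the median standard error was 0.15 and the median coefficient of variation 13.2%. Only 3 of these 218 genes had a larger standard error than Prrx1. They were Col2a1, the cartilage collagen (0.48), Col3a1, a fibrillar collagen of connective tissue (0.40), and the predicted gene Gm10800 (0.39), named after their values were seen. The values per region of Prrx1 were not recovered, so which regions were high or low is not known. For a call at its own standard error, Prrx1 would have needed a log2 change of 1.21, a fold of 2.32.

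**Figure D2:**
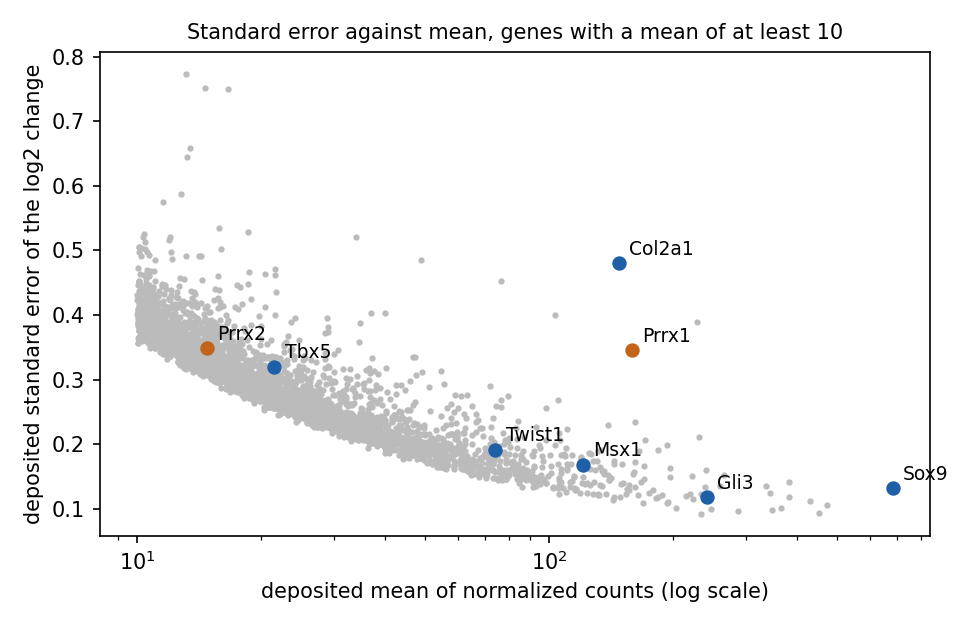
The standard error of the log2 change is plotted against the mean of normalized counts (log scale), both from the authors' deposited table, for the 3757 genes with a mean of at least 10. Prrx1 (orange, mean 159, standard error 0.35) lies far above most genes of similar mean, near Col2a1, while Prrx2 (orange, mean 14.7, standard error 0.35) lies within the band. Blue points are Col2a1, Sox9, Gli3, Msx1, Twist1 and Tbx5, picked from the limb lists. The other plotted genes of those lists are grey.

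Prrx2 (ENSMUSG00000039476, chr2:30834972-30881251, plus strand), the paralog that overlaps Prrx1 in function, had a mean of 14.7 in the authors' deposited table. Its values correspond to about 13.6 normalized counts in distal and 15.8 in proximal, or about 39.9 and 153 counts. In the authors' deposited table its log2 change was -0.22 (SE 0.35, adjusted p 0.991). The 95% interval ran from -0.90 to 0.47. For Prrx2 the deposited standard error was 1.36 times the counting error, and its coefficient of variation between regions, 25.4%, was near the median of 24.9% of the 3583 genes with a mean from 7.37 to 29.5. Prrx1 and Prrx2 thus had the same standard error at means of 159 and 14.7. Their changes came from the same regions and libraries, and their difference was not tested.

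Over this 1 contrast, the list genes with a mean of at least 10 whose log2 change was nearest to that of Prrx1 were Tbx15 (-0.43, a difference of 0.11) and Tbx18 (-0.49, a difference of 0.17), T-box genes of limb mesenchyme. Nearest to Prrx2 were Sox6 (-0.13, a difference of 0.085) and Twist1 (-0.09, a difference of 0.13). None of the 4 was called in the authors' deposited table, and likeness in 1 contrast of 2 libraries is a weak description.

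Shox2 (ENSMUSG00000027833, chr3:66971727-66981771, minus strand) showed the largest difference of the 6 in units of its standard error. Its counts in the proximal regions, from the deepest region to the shallowest, were 11, 13, 7, 3 and 18. In the distal regions they were 0, 0, 1, 0 and 0. After division by the size factors the proximal values were 4.55, 5.88, 3.58, 1.91 and 12.0, and the only distal region above 0 stood at 1.79. Every proximal region was therefore above every distal one, though the lowest proximal and the highest distal value lay close together. A single count was worth 1.20 to 3.04 in distal and 0.414 to 0.666 in proximal regions, so a distal level near the lowest proximal one could have gone uncounted in some regions.

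The mean of Shox2 was 5.58 ± 3.86 normalized counts in proximal and 0.358 ± 0.800 in distal (SD, n = 5 regions of 1 library each). Of its 53 counts, 1 (1.89%, exact 95% binomial interval 0.0478 to 10.1%) was distal. The proximal level per unit of depth was 15.8 times the distal one, with a counting interval of 2.71 to 635. Intervals of this kind cover counting error only. In the authors' deposited table its log2 change was -3.49 (SE 1.08, p 0.0012, adjusted p 0.107), so it was not called. The largest p of any called gene was 0.000465. Among the 1650 genes with a mean from 1.48 to 3, 2.73% had every proximal region above every distal one, 0.0606% the reverse, and 2.85% had at most 1 distal count. Shox2 (mean 2.97) lies at the top of this window, which ends at 3 because counts were recovered only up to that mean. Depth was lower in distal, so the shares of the 2 directions are not a like comparison. The separation of the sides in Shox2 was thus seen in 45 of the 1650 genes, Shox2 included.

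Pitx1 (ENSMUSG00000021506, chr13:55825051-55836192, minus strand) was counted in proximal regions only. Its counts from the deepest proximal region to the shallowest were 11, 5, 0, 0 and 6, and all 5 distal regions had 0. The normalized values of the 3 proximal regions with counts were 4.55, 2.26 and 3.99, so the gene was patchy within the proximal side, and the 2 proximal regions at 0 overlapped the distal ones. The mean was 2.16 ± 2.15 normalized counts in proximal (SD, n = 5 regions) and 0 in distal. Per unit of depth the proximal side had 2.28 counts. With distal set at 3 counts over its regions, which is 1.02 per unit of depth, the proximal level was 2.22 times the distal one. That figure takes the 22 proximal counts as exact and covers no spread between regions, so it is not a lower limit of the difference. In the authors' deposited table the adjusted p was 0.991, and the 95% interval of the log2 change, from -5.87 to 0.42, includes 0. Of its 22 counts, 0 were distal, which allows a distal share of up to 13.6% at 3 counts of 22 and of up to 15.4% by the exact 95% binomial interval. Among the 2493 genes with a mean from 0.540 to 2.16, 5.21% had no distal count, and 19.4% had counts in at most 3 proximal regions.

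Alx4 (ENSMUSG00000040310, chr2:93642384-93681339, plus strand) and Alx1 (ENSMUSG00000036602, chr10:102998707-103030215, minus strand) were at the edge of detection. All 4 counts of Alx4 lay in 1 proximal region, that of size factor 2.21, where its normalized value was 1.81. Alx1 had 1 count in all, in the distal region of size factor 0.559. A difference between the sides was not detectable at this depth for either gene. Their deposited log2 changes (2.34 for Alx1 and -0.16 for Alx4, with standard errors of 3.16 and 3.12) carry no direction: Vsx1, with 1 count in the same region as Alx1, has the same value in the authors' deposited table, and Alx4 has a change near 0 with counts on 1 side only.

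**Figure D3:**
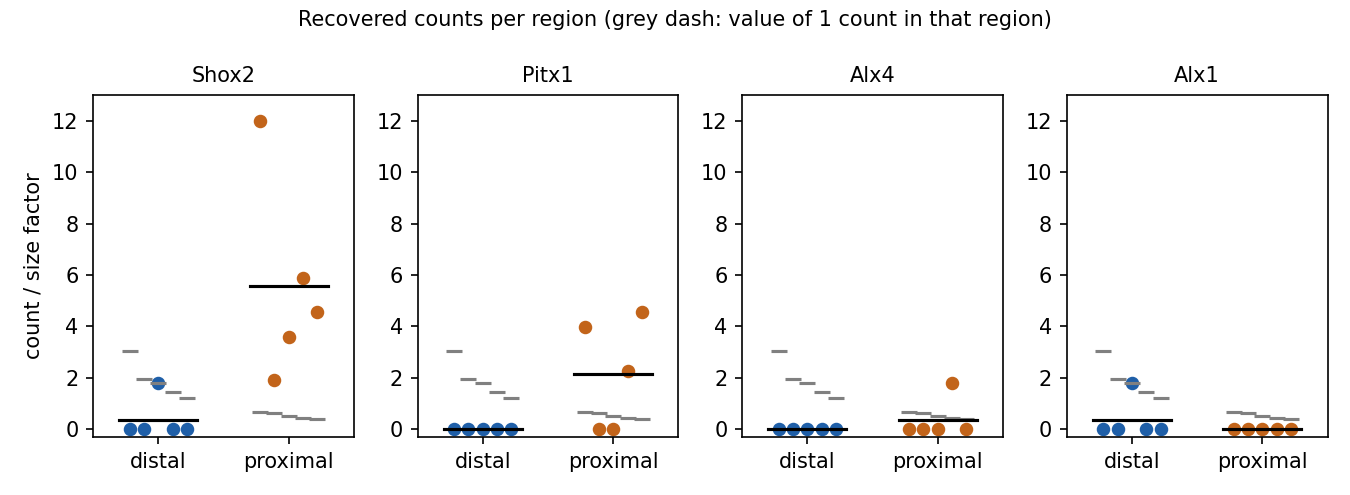
Counts divided by the size factor are plotted for the 5 distal (blue) and 5 proximal (orange) regions, from the shallowest region on the left to the deepest on the right within each side, for Shox2, Pitx1, Alx4 and Alx1. Black lines are means, and grey dashes mark what 1 count is worth in that region. Shox2 is above 0 in all 5 proximal regions (1.91 to 12.0), and Pitx1 in 3 of them.

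The other genes of the paired class were read from a list of 26 reported here, of which 10 had a row and 0 were called in the authors' deposited table, with 0 at an unadjusted p under 0.05. Their means ran from 0.0414 to 2.02, so none of them had a mean of at least 10. Pax3, which marks migrating muscle precursors, had 19 counts, all proximal (11, 4, 0, 1 and 3 from the deepest region to the shallowest). Pax6, known from eye and neural development, had 6 distal and 16 proximal counts, close to the split of depth, and the authors' deposited table lists it at 0.27 on the log2 scale. The other 8 genes (Dmbx1, Esx1, Gsc, Mixl1, Otx1, Pax7, Pitx3 and Vsx1) had 1 to 4 counts each. Over the 10 genes, 7 of 56 counts (12.5%) were distal. Over Shox2, Pitx1, Alx4 and Alx1 the share was 2.50% (2 of 80). That share is mostly a restatement of 2 genes, since Shox2 gave 53 and Pitx1 22 of the 80 counts. Over all 6661 genes with a mean up to 3 the distal share was 20.2%.

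**Figure D4:**
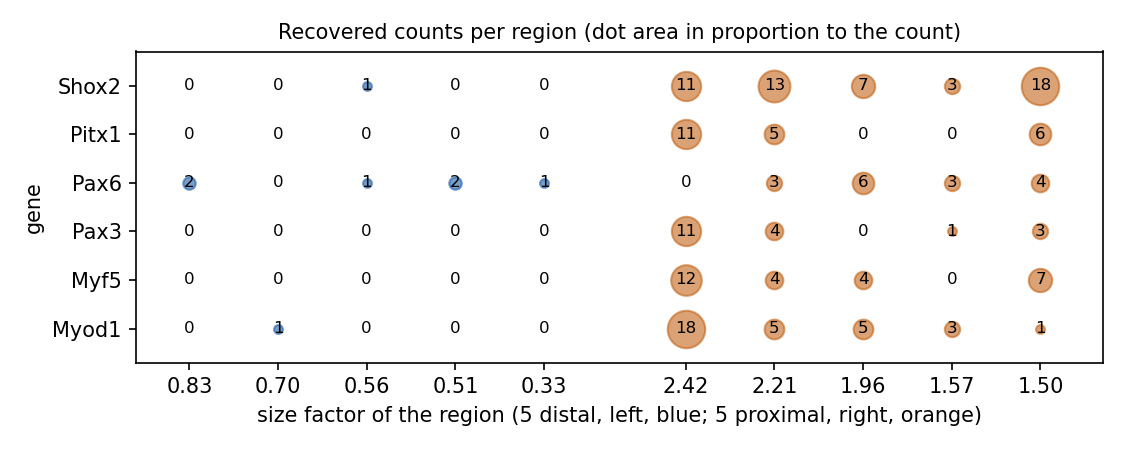
Recovered counts are printed for each region, with dot area in proportion to the count, for Shox2, Pitx1, Pax6 and Pax3 and for the muscle regulators Myf5 and Myod1. Distal regions (blue) and proximal regions (orange) are ordered by size factor. The deepest proximal region (size factor 2.42 of a proximal sum of 9.65) holds 11 of 22 counts of Pitx1 and 11 of 19 of Pax3. It holds 12 of 27 counts of Myf5 and 18 of 33 of Myod1. Pitx1 is at 0 in 2 proximal regions, in which Myod1 has 5 and 3 counts. Shox2 has its highest count, 18, in the shallowest proximal region.

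Markers of muscle lay on the same side as these counts. All 8 muscle markers had a higher mean in proximal, with a summed level of 10.0 normalized counts in distal and 108 in proximal. The authors' deposited table called 4 of the 8 higher in proximal, against 0.582% of all genes. Pax7, 1 of the 8, had only 2 counts, both in 1 proximal region, and is listed at 0.63 on the log2 scale in that table. In the proximal regions, from deepest to shallowest, Myf5 had 12, 4, 4, 0 and 7 counts and Myod1 had 18, 5, 5, 3 and 1, against 0 and 1 in all distal regions together. Their part in the counts of Shox2 and Pitx1 was not tested. In such bulk regions, fewer cells of a type and less RNA per cell cannot be told apart. Summed levels of the other marker lists were 0.678 in distal and 0.632 in proximal for surface ectoderm (Krt14 and Cdh1 with 1 count each), 1.57 and 1.80 for blood and endothelium, and 3.55 and 5.20 for neural crest and Schwann cells. Of the limb mesenchyme markers 9 of 9 had a row, with means from 6.29 to 260.3, and 7 had a higher mean in distal. By the authors' deposited table, 4 of these markers were called higher in distal (Lhx2, Msx1, Hoxd12 and Hoxd13), against 0.395% of all genes. Pdgfra was the 1 called lower there (-0.86, adjusted p 3.94e-06), against 0.582% of all genes, and Twist1 stood at -0.09. Summed levels of the 9 markers were 966 in distal and 621 in proximal, with Hoxd13 having the highest mean (260.3, log2 change 1.16). A higher sum does therefore not show more limb mesenchyme in distal.

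Genes that work beside the members were read from 4 further lists. The authors' deposited table called 4 of their 24 genes, against 0.977% of all genes, and the lists were chosen with earlier results known. Among the genes that mark limb type, Tbx5, the forelimb factor, was called and higher in proximal (log2 change -1.41, SE 0.32, adjusted p 0.00199). Tbx4, the hindlimb partner of Pitx1, stood at -0.67 (SE 0.57, adjusted p 0.991) there, and Isl1 had 1 count. RNA of a forelimb and of a hindlimb factor was thus counted in these pooled libraries.

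Of 8 genes of skeletal condensation, Sox9, the cartilage regulator, alone was called, higher in distal (log2 change 0.69, adjusted p 4.7e-05 in the authors' deposited table). The log2 changes in that table of the others with a mean of at least 10 were 0.12 for Sox5, -0.13 for Sox6, 0.60 for Runx2 and 0.57 for Col2a1. Acan, a cartilage proteoglycan with a mean of 4.43, had -1.57 (p 0.0345, adjusted p 0.79) in the authors' deposited table. None of 6 anterior-posterior genes was called: Gli3, with which Alx4 interacts genetically, had 0.19, Hand2 -0.57 and Ptch1 0.62 in the authors' deposited table. Among 7 mesenchymal regulators, Msx1 was called and higher in distal (1.12, adjusted p 2.09e-08), and Tnc, a matrix gene that Prrx1 is known to activate, was called and higher in proximal (-1.81, adjusted p 0.0035). Msx2 stood at 0.49 in the authors' deposited table and was not called.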

How the data were processed

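The file analysed is a comparison of the 2 sides that the authors made for protein-coding genes, with the columns of a DESeq2 results table per the file headers. Its mean is a signal in normalized counts that the authors averaged over regions and deposited. The log2 change with its standard error, the score (their ratio), the p-value and the adjusted p were computed by the authors and deposited. The submitters' processing notes name mm10 and GRCm38, and aligner and counter are not given in the sources used here.

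Means of genes with 1 count repeat on steps, and steps shared by at least 20 genes gave 10 size factors. For each mean up to 3, all sums of steps within 1.5e-09 were listed, and a negative binomial fit (fitted means at or above 0.5, dispersion up to 10) kept those that gave the deposited standard error and the deposited log2 change to within 1e-06. Exactly 1 set of counts remained for 6661 of 6661 genes. On simulated data, 171 of 171 genes were recovered. Draws with no count or with a mean above 3 were left out. The simulation used the same size factors and the same fit as the recovery, so it cannot show an error in either. Its dispersions lay below the limit of 10, at which Alx1 and Alx4 lie. For genes with higher means, side levels and dispersions were computed from the mean, log2 change and standard error. Tested on simulated data (200 genes), the median error was 3.21% for distal and 1.91% for proximal counts and 0.437% for the dispersion. The 95th percentile of the error was 10.8% for distal and 6.59% for proximal counts and 5.19% for the dispersion. These errors cover the conversion only, not how well 5 regions of a side measure the spread. Regions of a side share 1 library, so p-values measure only the spread between regions. Whether they came from separate organoids was not tied to barcodes. Whether counts are of molecules or reads is not given in the sources used here.

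Members and lists were chosen with earlier results of these data known. The rule for named genes took the members, list genes that were called or had a mean of at least 10, paired-class list genes with a row, and for members with a mean of at least 10 the 2 nearest list genes by log2 change. Tbx4, Isl1, Myf5, Myod1, Krt14, Cdh1, Grem1, Runx3, Gli1, Acan, Col3a1, Gm10800 and the overlapping genes fall outside it and were chosen after their values were seen. Some list genes are not reported here and were left out of the lists' counts. Near-identical copies were searched with BLAST in the last 300 bases of GENCODE M21 transcripts (at least 200 bases at 95% identity). A comparison of proteins was planned, and the homeobox bases were compared in its place. The analysis used Python with SciPy.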

Additional observations from a re-analysis of the deposited data

Results flagged for a closer look

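Among the 5 regions of a side, 1 stood apart from the others in 3 cases, each from counts in 1 region with the other 4 at 0. They were Alx1 in distal (normalized value 1.79, from 1 count), Shox2 in distal (1.79, from 1 count in the region of the same size factor, 0.559) and Alx4 in proximal (1.81, from 4 counts). Chance flags about 1 in 20 groups of normally spread values, and a group with 1 non-zero region is always flagged.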

How the results depend on the processing

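No member was called at an adjusted p under 0.01 or 0.1, with Benjamini-Hochberg adjustment over the table, or with centring on either median. An adjustment over genes whose mean reached 10 could hold Prrx1 and Prrx2 only, and called neither. The 32 values of the log2 changes under these settings kept their sign and stayed uncalled. For Shox2 the lowest adjusted p among those 32 was 0.0807. The 38 values with 1 region left out also kept their sign, but have an unadjusted p only, so calls were not assessed for them. Leaving out each of the 10 regions in turn, with the dispersion held, gave log2 changes from -4.07 to -3.04 for Shox2 (unadjusted p 0.000601 to 0.00689). For Pitx1 they ran from -3.04 to -2.24 (unadjusted p 0.0679 to 0.186). Pitx1 had 0 distal counts and Shox2 had 1, so leaving out 1 region could hardly turn either sign. The kept sign of Shox2 and Pitx1 is therefore no sign of stability. For Alx4 (-0.49 to -0.02) and Alx1 (2.25 to 2.63) only the 9 regions without counts could be left out, since no count remains without the other one, so their kept sign says nothing of stability. An exact two-sided permutation test over the 10 regions, added after the region values were seen, gave unadjusted p = 0.00794 for Shox2, 0.167 for Pitx1 and 1 for Alx1 and Alx4. The first is the smallest that 5 against 5 regions can give, which the separation already seen fixes, so it adds nothing to that separation. Size factors from steps shared by at least 40 genes found 9 regions and moved the distal counts of Prrx1 from 414 to 368, since 1 region was missed. No paired analysis was possible because recovered counts carry no region number. Depth limits the distal side, where 3 counts over all regions correspond to a normalized mean of 1.02, against 0.311 in proximal.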

Other observations

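Recovered counts also covered low genes that act in the same limb pathways. Grem1, the BMP antagonist of the limb bud signalling loop, had 38 proximal counts (13, 2, 15, 6 and 2 from the deepest region to the shallowest) and 2 distal ones. The authors' deposited table lists it at -2.41 on the log2 scale (adjusted p 0.755). Runx3, a regulator of cartilage and bone growth, had 9 distal and 11 proximal counts, and is listed at 1.39 on the log2 scale in the authors' deposited table (adjusted p 0.991). Gli1, a hedgehog target, had 2 distal and 7 proximal counts, near the split of depth.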
